A study of Sus scrofa with 16 samples.

Results

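The genes of fatty acid elongation and desaturation were followed in the pituitary of 16 gilts of the Pulawska pig breed. They are 6 elongases (ELOVL1, ELOVL2, ELOVL4, ELOVL5, ELOVL6 and ELOVL7), 3 desaturases (FADS1, FADS2 and SCD) and the fatty acid synthase FASN, 10 of the 25880 genes counted. The genes were chosen by symbol, each symbol belonged to 1 gene, and all 10 passed the filter on low counts. ELOVL2 was singled out because of its own difference between the groups in these libraries, so its difference is given as a description, and a count of calls that includes it is no test of it. RNA of 8 gilts with low feed conversion (LFC, replicates 1 to 8) was set against that of 8 gilts in which it was high (HFC, replicates 9 to 16), the trait being the amount of feed used for a unit of weight gain. All animals were females of the same breed, came from different farms, were unrelated and were kept and fed alike at 1 test station, and each library is 1 animal. The labels give an age of 3 months for both groups, whereas the methods of the study describe pigs slaughtered at the end of the fattening test. The comparison asks whether the pituitary transcriptome differs with feed conversion.

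Fatty acid synthase builds palmitate, a saturated chain, from acetyl and malonyl units. Elongases sit in the membrane of the endoplasmic reticulum and carry out the condensing step that lengthens an acyl-CoA, and each accepts its own range of chains. Desaturases of the same membrane insert double bonds: SCD makes oleate and palmitoleate from saturated chains, whereas FADS2 and FADS1 act in turn with ELOVL5 and ELOVL2 on the route from the dietary essential fatty acids to arachidonate and docosahexaenoate. Docosahexaenoate is abundant in membranes of neural and endocrine cells, and ELOVL2 is the elongase of that route with a preference for its longest polyunsaturated substrates.

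Values are counts-per-million (CPM) of the library size after trimmed mean of M-values (TMM) scaling, a correction for differences in composition between libraries. Total counts were between 10.97 and 23.06 M per library. The annotation used here gives no transcript lengths, so levels are compared between animals. Where genes are called most abundant, summed or set in a ratio, this refers to read counts and not to numbers of transcripts. Markers of other cells set some libraries apart. HFC replicate 16 had 22.002% of its counts in POMC, the precursor of corticotropin and melanotropin, against 0.624 to 6.52% in the other 15 libraries. GFAP, an intermediate filament of glia, was at 127 CPM in HFC replicate 13 and 234 CPM in HFC replicate 14. HFC replicate 16 had 90.5 CPM of GFAP, and LFC replicates 1 and 5 and HFC replicate 10 had 51.0 to 52.0 CPM. LFC replicate 7 had 29.3 CPM, and the remaining libraries had 6.38 CPM or less. LFC replicate 5 had the lowest TMM factor (0.7513). In whole tissue, fewer cells of a type and less RNA per cell cannot be told apart.

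ELOVL2 was higher in the HFC gilts. The gene (ENSSSCG00000001045) spans positions 7651707 to 7732353 of chromosome 7 in the RefSeq annotation of Sscrofa11.1. In LFC replicates 1 to 8 it was at 4.97, 3.83, 3.02, 3.99, 2.57, 3.05, 3.35 and 6.23 CPM, and in HFC replicates 9 to 16 at 8.02, 7.92, 10.1, 10.2, 7.73, 6.56, 6.48 and 39.1 CPM. All 8 HFC values lay above all 8 LFC values, and HFC replicate 16 stood far above the other 7 HFC animals. Mean ± SD over 8 animals came to 3.88 ± 1.20 CPM for LFC and to 12.02 ± 11.05 CPM for HFC. The fitted log2 fold change of HFC against LFC was 1.63 with a standard error (SE) of 0.37, a fold of 3.10. Without HFC replicate 16 the log2 fold change was 1.07, and over the 16 fits that each lacked 1 library it ran from 1.07 to 1.75. The values rest on few reads, 27 to 122 counts in LFC and 64 to 650 in HFC. The absence of overlap depended on the scaling: relative to the plain total count, HFC replicates 14 (5.83 CPM) and 15 (5.95 CPM) lay below LFC replicate 8 (6.50 CPM). Of all 14319 genes tested, 3 (0.021%) had HFC values all above the LFC values on the TMM scale and 0 on the plain total, and this is the contrast on which ELOVL2 was chosen.

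**Figure D1:**
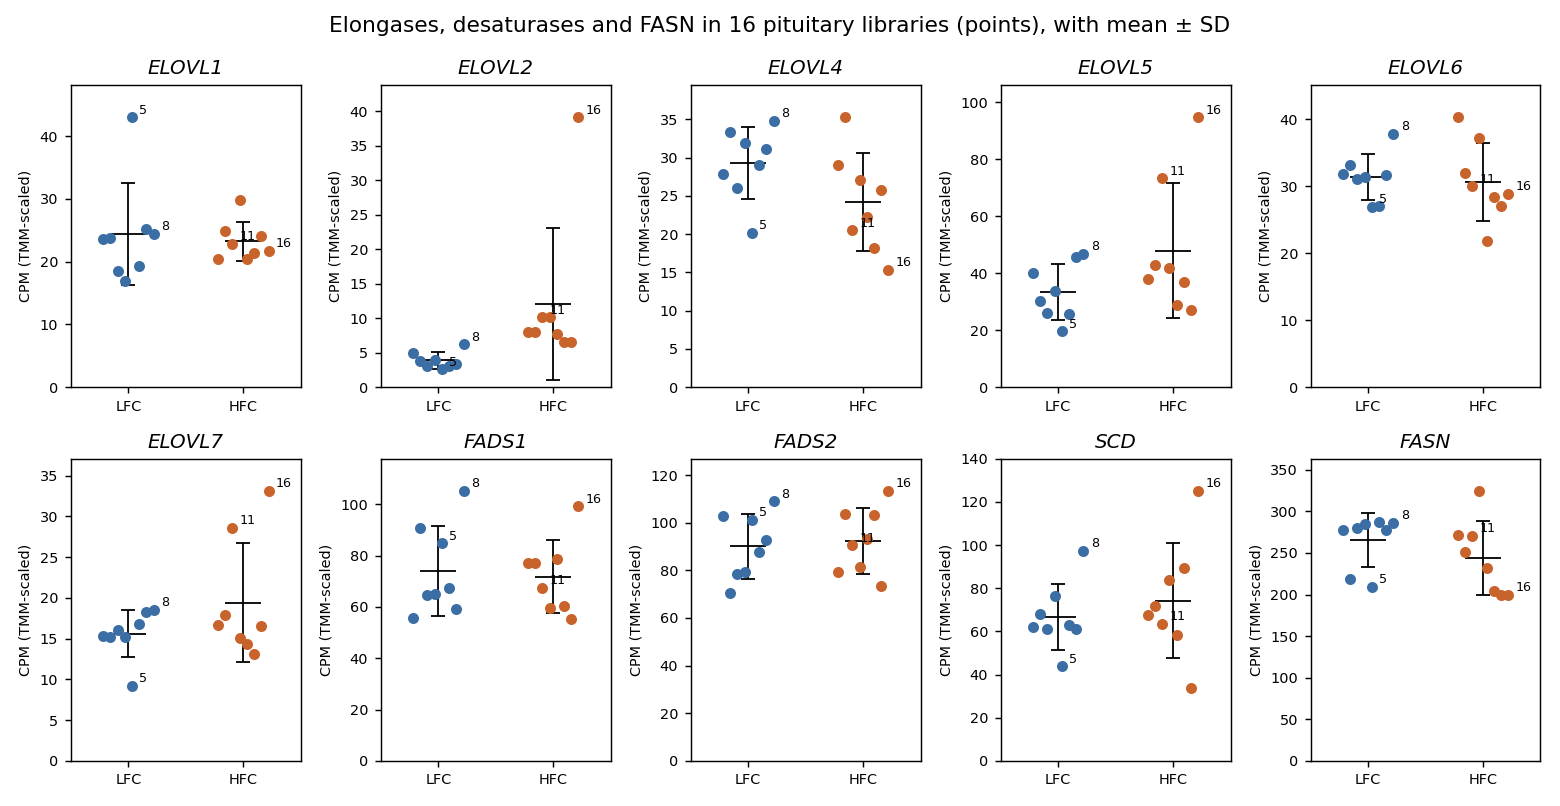
Level of each of the 10 genes in CPM after TMM scaling (vertical axes, linear from 0) in the 8 LFC (blue) and 8 HFC (orange) libraries. Points are single animals, horizontal marks are means, bars are ± 1 SD, and LFC replicates 5 and 8 and HFC replicates 11 and 16 carry their numbers. For ELOVL2 the groups do not overlap (highest LFC 6.23, lowest HFC 6.48 CPM), whereas for the other 9 genes they do.

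The share of ELOVL2 within the elongase family does not depend on how libraries are scaled to one another. ELOVL2 took 2.11 to 3.69% of the summed counts of the 6 elongases in LFC (median 2.63%) and 4.92 to 16.8% in HFC (median 5.36%). The groups did not overlap in this share. In the closest pair, LFC replicate 8 had 3.69% (95% Wilson interval 3.10 to 4.39%) and HFC replicate 10 had 4.92% (4.20 to 5.76%), so the intervals of these 2 libraries overlapped, and the intervals of LFC replicates 1 and 8 each overlapped those of HFC replicates 10, 14 and 15. Such intervals cover counting error only. Since ELOVL2 is the numerator, the share is a second view of the same contrast.

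ELOVL5 (ENSSSCG00000024149, chromosome 7, 46860499 to 47043818 in the Ensembl models of Sscrofa11.1) elongates polyunsaturated chains ahead of ELOVL2 on the same route. It ranged from 19.6 to 46.9 CPM in LFC (median 31.9) and from 27.1 to 94.7 CPM in HFC (median 39.9). The groups overlapped, and 2 HFC animals, replicates 11 (73.4 CPM) and 16 (94.7 CPM), lay above every LFC animal. The log2 fold change was 0.52 with an SE of 0.26 and a 95% interval of -0.04 to 1.08 (edgeR adjusted p = 0.890). Without HFC replicate 16 it was 0.30, and without HFC replicates 11 and 16, an omission added after the data were seen, it was 0.10. Leaving out the 2 highest values of the same group lowers the difference by construction. The interval over all libraries includes 0, so a group difference in ELOVL5 was not resolved.

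ELOVL2 and ELOVL5 counts stood in a narrow ratio in the LFC animals. Per 100 ELOVL5 counts there were 12.4, 12.7, 11.7, 11.9, 13.1, 11.9, 7.35 and 13.3 ELOVL2 counts in LFC replicates 1 to 8. In HFC replicates 9 to 16 there were 21.1, 18.4, 13.8, 24.5, 26.8, 17.8, 23.9 and 41.3. LFC replicate 7 was the single low value in its group, HFC replicate 11 came within reach of the LFC values, and the groups did not overlap. In HFC replicates 9, 10, 12, 13, 14 and 15 ELOVL5 lay between 27.1 and 43.0 CPM, inside the LFC range. Since ELOVL2 is the numerator, the ratio is another view of the contrast on which ELOVL2 was chosen.

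**Figure D2:**
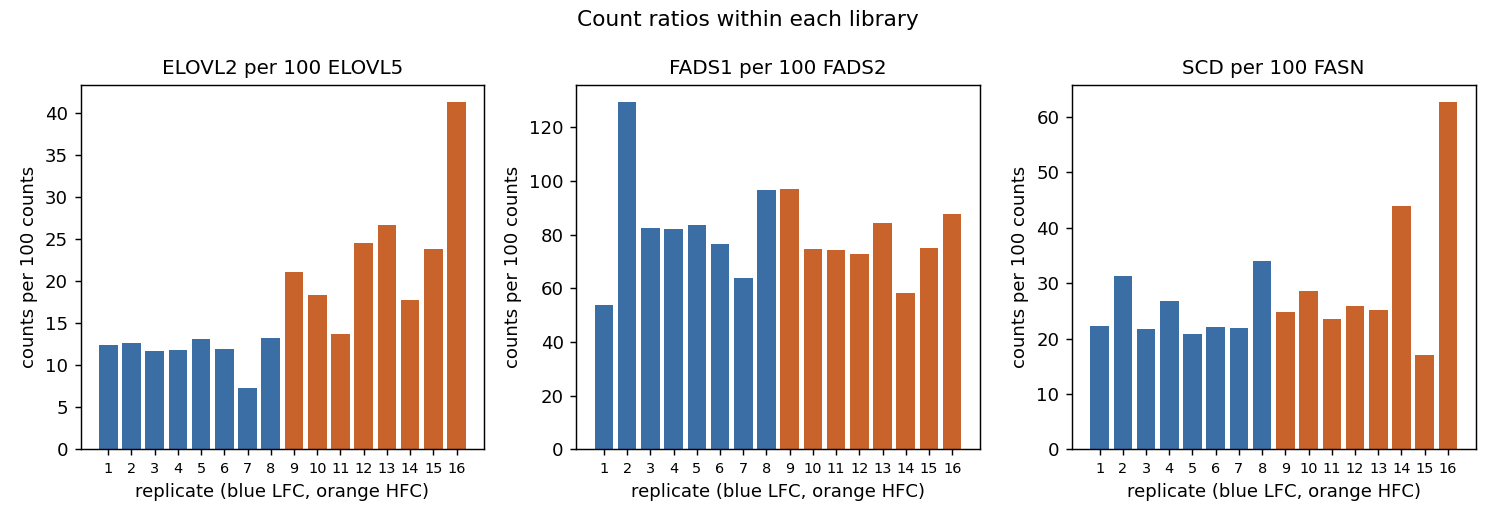
Ratio of the counts of 2 genes within each library (bars from 0, counts of the first gene per 100 counts of the second) for LFC replicates 1 to 8 (blue) and HFC replicates 9 to 16 (orange). ELOVL2 per ELOVL5 is between 7.35 and 13.3 in LFC and between 13.8 and 41.3 in HFC, whereas FADS1 per FADS2 and SCD per FASN overlap between the groups. ELOVL2, the numerator of the first ratio, was chosen on this contrast.

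ELOVL4, which makes the very long chains of retina, skin and brain, went the other way without passing the test. It was at 20.2 to 34.8 CPM in LFC (median 30.1) and 15.4 to 35.3 CPM in HFC (median 24.0). The lowest values were those of HFC replicate 16 (15.4 CPM), HFC replicate 14 (18.2 CPM) and LFC replicate 5 (20.2 CPM), and the groups overlapped. The log2 fold change was -0.28 (SE 0.16, interval -0.62 to 0.07, adjusted p = 0.945). In HFC replicate 16 the polyunsaturated elongases stood at opposite ends: it held the highest ELOVL2 and ELOVL5 and the lowest ELOVL4 of all 16 libraries.

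The elongases of saturated and monounsaturated chains gave no call. ELOVL6, which lengthens palmitate to stearate, was among the steadiest of the genes, at 26.9 to 37.8 CPM in LFC and 21.8 to 40.3 CPM in HFC (coefficients of variation 10.998 and 19.0%), with a log2 fold change of -0.03 (SE 0.12, interval -0.29 to 0.23, adjusted p = 0.9999). ELOVL1, which serves very long saturated chains for sphingolipids, was at 16.9 to 43.0 CPM in LFC and 20.4 to 29.9 CPM in HFC. LFC replicate 5 alone gave the LFC maximum, and the other 7 LFC animals lay within 16.9 to 25.3 CPM. Its log2 fold change was -0.07 (SE 0.17) and 0.10 without LFC replicate 5. ELOVL7, an elongase of saturated and polyunsaturated chains, was at 9.23 to 18.5 CPM in LFC and 13.1 to 33.1 CPM in HFC. HFC replicates 11 (28.6 CPM) and 16 (33.1 CPM) were highest, the libraries that were also highest for ELOVL5. The log2 fold change of ELOVL7 was 0.32 (SE 0.20, interval -0.12 to 0.75, adjusted p = 0.986), 0.16 without HFC replicate 16 and -0.00 without both. Leaving out both, its highest values, was added after the data were seen and lowers the difference by construction.

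Among the desaturases no gene was called, and the interval of each log2 fold change included 0. FADS2, the delta-6 desaturase at the entry of the polyunsaturated route, was at 70.3 to 109 CPM in LFC (median 90.2) and 73.3 to 113 CPM in HFC (median 91.8). Its log2 fold change was 0.03 (SE 0.12), and the interval of -0.22 to 0.28 bounds the difference more closely than for any other of the 10 genes. FADS1, the delta-5 desaturase that follows, was at 55.5 to 105 CPM in LFC (median 66.1) and 55.1 to 99.2 CPM in HFC (median 72.1), with a log2 fold change of -0.04 (SE 0.15, interval -0.37 to 0.28). FADS1 and FADS2 are neighbours on chromosome 2 of Sscrofa11.1 (9735273 to 9750506 and 9632454 to 9667044). Their ratio varied between animals, from 54.0 to 129 FADS1 counts per 100 FADS2 counts in LFC and from 58.3 to 97.2 in HFC, and the correlation of the pair within groups was low (r = 0.34, n = 16).

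SCD, the delta-9 desaturase, was at 43.8 to 97.4 CPM in LFC (median 62.5) and 33.8 to 125 CPM in HFC (median 69.7). The highest animals were HFC replicate 16 and LFC replicate 8, the lowest was HFC replicate 15, and the groups overlapped. The log2 fold change was 0.16 (SE 0.21, interval -0.29 to 0.60, adjusted p = 0.9999), and 0.01 without HFC replicate 16.

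FASN was at 210 to 287 CPM in LFC (median 279) and 200 to 324 CPM in HFC (median 242). Of the LFC animals, 6 lay above 278 CPM, but HFC replicate 12 (324 CPM) was above them all. The log2 fold change was -0.12 (SE 0.12, interval -0.38 to 0.14, adjusted p = 0.9999). SCD and FASN, both enzymes of de novo lipogenesis, did not keep a common ratio: there were 20.9 to 34.0 SCD counts per 100 FASN counts in LFC and 16.96 to 62.6 in HFC, the highest in HFC replicates 16 (62.6) and 14 (43.9).

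Counted together, 0 of the 10 genes were called in HFC against LFC at an adjusted p of at most 0.05 with a fold of at least 1.3, against 0 of 14319 genes tested (0.0%). At an unadjusted p under 0.05 there was 1 of 10, ELOVL2, on whose contrast the choice was made, against 834 of 14319 genes (5.82%). With DESeq2, 20 of 18807 genes with an adjusted p were called (0.106%), and ELOVL2 fell among them, which is no test of ELOVL2 for the same reason. The median log2 fold change of the 9 genes other than ELOVL2 was -0.03, and that of all genes tested -0.01. Of those 9 genes, 4 had a positive and 5 a negative log2 fold change. Among all 14319 genes tested, 6928 had a positive one.

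**Figure D3:**
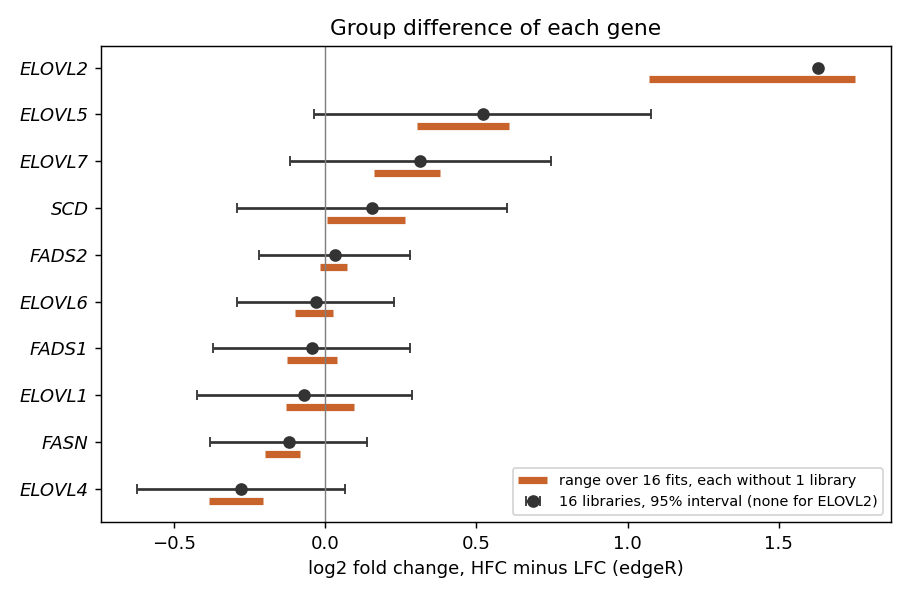
Log2 fold change of HFC against LFC (horizontal axis) for the 10 genes, with 95% intervals from the edgeR fit of 16 libraries (black) and the range over 16 fits that each left out 1 library (orange bars). ELOVL2, singled out on this contrast, has no interval drawn. The intervals of the other 9 genes cross 0, ELOVL2 keeps at least 1.07 in every fit, and the range of ELOVL1, ELOVL6, FADS1 and FADS2 reaches both sides of 0.

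Within groups, ELOVL5 varied with ELOVL2, ELOVL7 and SCD. Correlations were taken on log2 CPM after the mean of each group was subtracted, over 16 libraries that share their depth and cell makeup between genes, and are given as descriptions. ELOVL5 and ELOVL7 formed the closest of the 45 pairs (Pearson r = 0.86, Spearman rho = 0.75), and r was 0.78 without HFC replicate 16. ELOVL2 and ELOVL5 followed with r = 0.81 (rho = 0.83), 0.75 without HFC replicate 16 and 0.72 without the 2 libraries farthest from the median of ELOVL2, HFC replicate 16 and LFC replicate 8. Over leaving out each library in turn this r stayed between 0.75 and 0.88. ELOVL5 and SCD had r = 0.68, 0.53 without HFC replicate 16. ELOVL7 and SCD were less close (r = 0.46, rho = 0.26), with r = 0.21 without HFC replicate 16.

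The other partners of ELOVL2 were less stable. ELOVL7 had r = 0.73, 0.52 without HFC replicate 16, and SCD had r = 0.71 and 0.59. For FADS1 the value was 0.50 with all libraries, 0.23 without HFC replicate 16 and -0.19 without the 2 farthest libraries. FADS2 gave 0.45, 0.21 and -0.06. FASN, ELOVL6 and ELOVL4 moved in the opposite way when HFC replicate 16 was left out: r with ELOVL2 went from -0.02 to 0.59, from 0.21 to 0.56 and from -0.28 to 0.43. ELOVL1 had no partner among the 10 genes above r = 0.26. Over the 45 pairs the median r was 0.21, and 9 pairs were above 0.5.

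**Figure D4:**
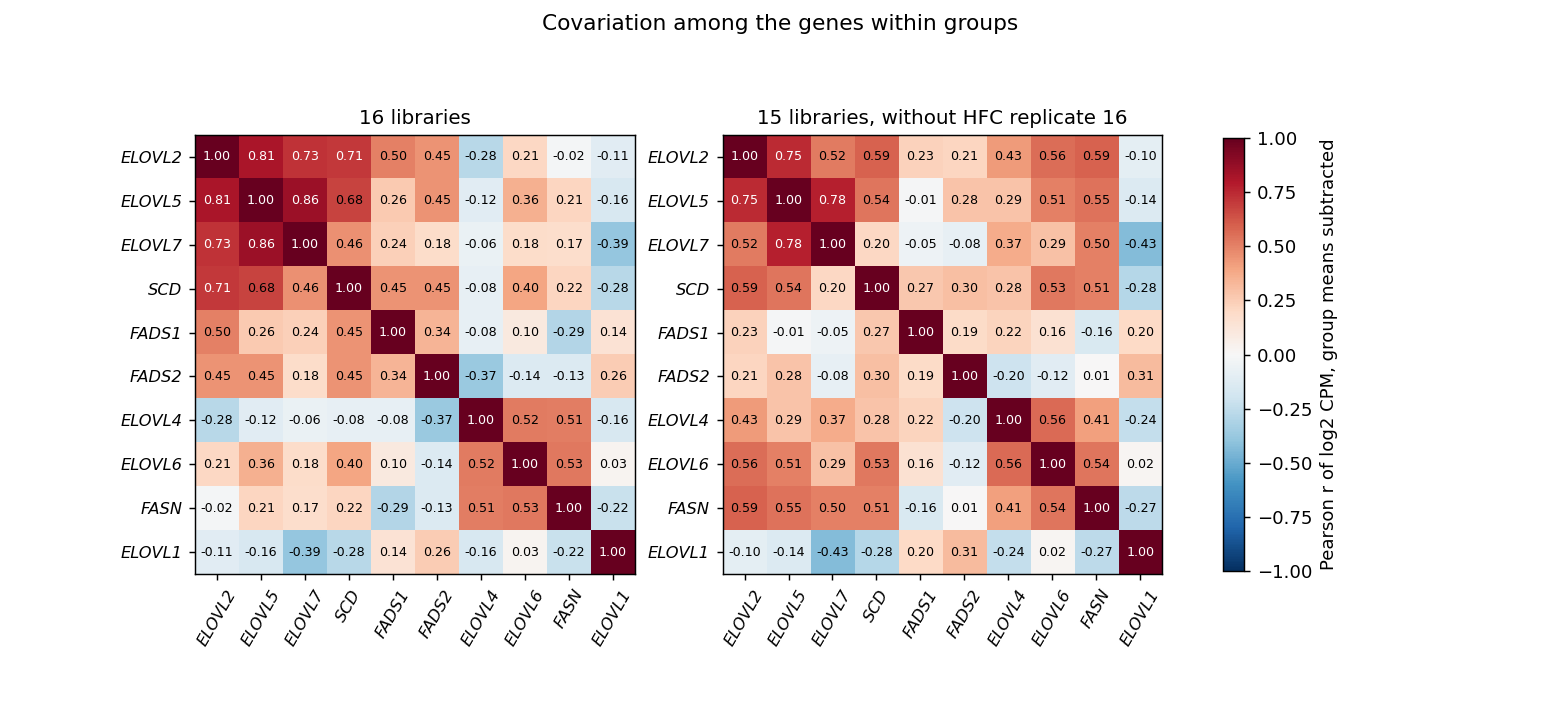
Pearson correlation of log2 CPM (colour and printed value, group means subtracted) for each pair of the 10 genes, over 16 libraries (left) and over 15 libraries without HFC replicate 16 (right). ELOVL2, ELOVL5 and ELOVL7 keep r of at least 0.52 with each other in both panels, and the r of ELOVL2 with FASN goes from -0.02 to 0.59.

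Among 12869 genes with a mean of at least 1 CPM, ELOVL5 ranked 63 by its r with ELOVL2, ELOVL7 ranked 262 and SCD 309, whereas FASN ranked 6822. The 10 genes most like ELOVL2 in this measure were VWA3A (r = 0.94), PLEKHH2 (0.92), ILDR2 (0.92), MDFIC (0.90), ABAT (0.90), DPY19L1 (0.88), EPB41L5 (0.88), GRM4 (0.87), TMEM255A (0.87) and WASF2 (0.87). ABAT is the enzyme that breaks down GABA and GRM4 a glutamate receptor. The 3 genes at the other end were BHMT (r = -0.94), a methyltransferase of homocysteine, FBLL1 (-0.92) and SLC3A2 (-0.90), the heavy chain of amino acid transporters. All 13 had their largest deviation in HFC replicate 16, as had 13.3% of the ranked genes. Without that library, r with ELOVL2 lay between 0.59 (WASF2) and 0.80 (GRM4) for the 10 genes at the upper end and between -0.76 (BHMT) and -0.72 (FBLL1) for the 3 at the lower end.

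Markers of melanotrophs, the POMC cells of the intermediate lobe, were higher in some HFC libraries, most of all in HFC replicate 16. Of the 4 markers found, 0 were called (edgeR adjusted p from 0.612 to 0.9999). All 4 had a positive log2 fold change, against 6928 of all 14319 genes tested. An unadjusted p under 0.05 upwards was found for 3, against 615 of all genes (4.29%). Their summed level was 6056 to 77439 CPM in LFC and 23068 to 246420 CPM in HFC, nearly all of it POMC. PCSK2, the convertase that cleaves POMC to melanotropin, was at 2.47 to 27.4 CPM in LFC and 2.66 to 2595 CPM in HFC, where it stood at 126 CPM in replicate 15, 175 in replicate 14, 299 in replicate 11 and 2595 in replicate 16. PAX7, the transcription factor that sets the melanotroph fate, was at 0 to 3.13 CPM in LFC and 0.676 to 333 CPM in HFC. In the 4 other HFC animals (replicates 9, 10, 12 and 13) PCSK2 was at 2.66 to 22.02 CPM, inside the LFC range. ELOVL2 was at 7.73 to 10.2 CPM in these 4 animals. Every HFC animal exceeded every LFC animal in ELOVL2, the contrast on which it was chosen. Any subset of HFC animals therefore does so, whatever its markers. Within groups the r of ELOVL2 with PCSK2 was 0.48, and -0.18 without HFC replicate 16. The part of the melanotroph markers in the ELOVL2 level, in HFC replicate 16 or in other libraries, was not tested.

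Markers of pituicytes and astroglia were also higher in some HFC libraries. Of 11 markers tested, 0 were called and 10 had a positive log2 fold change, against 6928 of all 14319 genes tested. An unadjusted p under 0.05 upwards was found for 3 (RAX, SOX9 and GJA1), against 615 of all genes (4.29%). Their sum was 551 to 1307 CPM in LFC and 546 to 2735 CPM in HFC. GFAP was at 0.504 to 52.0 CPM in LFC and 1.38 to 234 CPM in HFC. RAX, a pituicyte marker, was at 0 in 5 LFC and 2 HFC libraries and at 33.9 CPM in HFC replicate 16. The HFC libraries low in GFAP (replicates 9, 12 and 15, 1.38 to 1.65 CPM) had ELOVL2 at 8.02, 10.2 and 6.48 CPM. Every HFC library exceeded the LFC libraries in ELOVL2, whatever its GFAP, and the part of glia in the ELOVL2 level was not tested. Within groups the r of ELOVL2 with the mean log2 CPM of the 11 markers was 0.39, and -0.11 without HFC replicate 16.

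**Figure D5:**
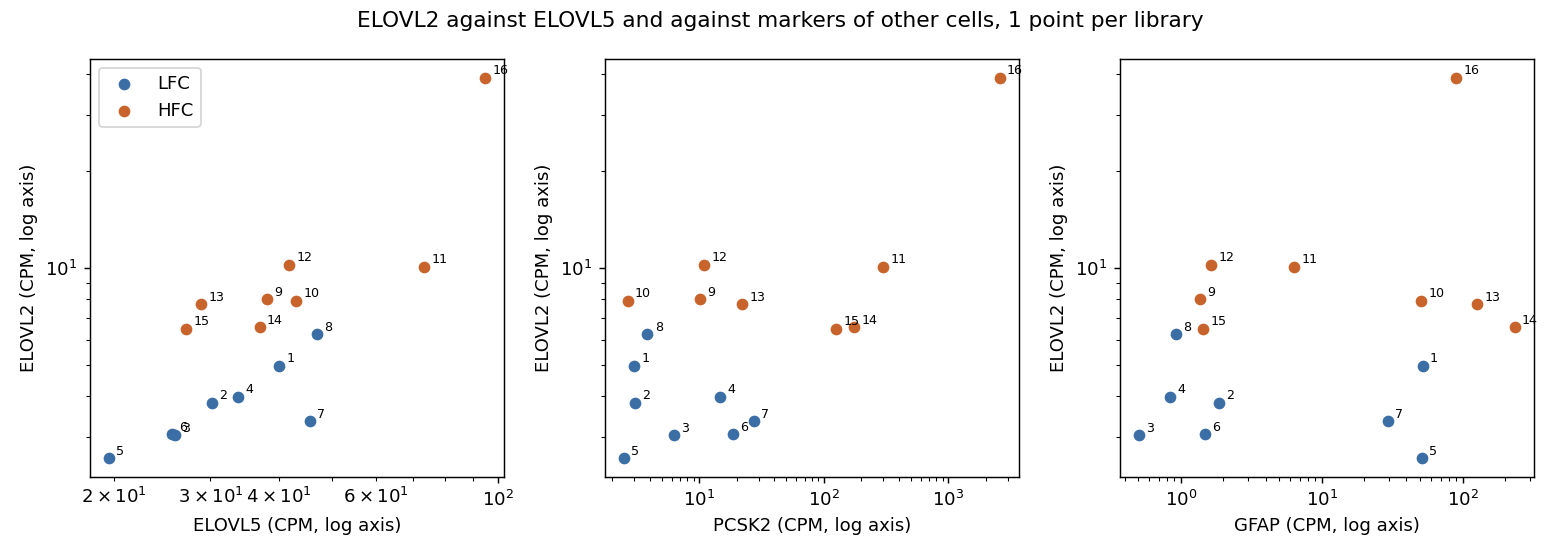
ELOVL2 (vertical axis) against ELOVL5, the melanotroph marker PCSK2 and the glial marker GFAP (horizontal axes), in CPM on log axes, 1 numbered point per library in LFC (blue) and HFC (orange). Along the ELOVL5 axis both groups slope upwards. All HFC animals lie above all LFC animals in ELOVL2, the contrast on which it was chosen, whatever their PCSK2 or GFAP.

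CGA and PRL, hormone genes of the anterior lobe, were lowest in HFC replicate 16. CGA, the common subunit of the glycoprotein hormones, was at 1689 CPM there and at 10830 CPM or more in all other libraries. PRL (prolactin) was at 276.5 CPM there and 1893 to 81061 CPM elsewhere. GH1 was at 11468 CPM in HFC replicate 16, and lower in HFC replicate 14 (9641 CPM) and LFC replicate 1 (10491 CPM). The corticotroph markers were divided in HFC replicate 16. TBX19 was highest there, at 364 CPM, whereas AVPR1B (2.41 CPM) and NEUROD1 (0.843 CPM) were lowest there. CRHR1 had neither its highest nor its lowest value in that library. The mean log2 CPM of the gonadotroph and thyrotroph markers had r = -0.74 with ELOVL2 within groups, and -0.17 without HFC replicate 16. The other 7 HFC libraries were at 6.48 to 10.2 CPM of ELOVL2, and the part of cell makeup in its level was not tested. Of the adipocyte markers, ADIPOQ was at 1.20 CPM and FABP4 at 1.51 CPM in HFC replicate 16. ADIPOQ reached 7.27 CPM in HFC replicate 14 and was at 1.57 CPM or less in the others.

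The other elongases and desaturases of the pig annotation were counted as well. Of 7 genes, 0 were called, 1 had an unadjusted p under 0.05 upwards and 1 downwards, against 4.29% and 1.53% of all genes tested. SCD5, a second delta-9 desaturase, was at 21.2 to 26.6 CPM in LFC and 20.2 to 43.3 CPM in HFC (log2 fold change 0.30, SE 0.14, adjusted p = 0.850), with its maximum in HFC replicate 16. FADS6 was at 42.8 to 180 CPM in LFC and 32.0 to 67.3 CPM in HFC (log2 fold change -0.62, SE 0.27, adjusted p = 0.824), and LFC replicate 5 gave the value of 180 CPM. FADS3 (log2 fold change 0.28) and the most abundant of the list, FAXDC2 (-0.00), gave no call.

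Each round of elongation needs 3 further enzymes after the condensing step, a ketoacyl reductase (HSD17B12), a dehydratase (HACD1 to HACD4) and an enoyl reductase (TECR). None of these 6 genes was called. HSD17B12 was at 60.4 to 87.7 CPM in LFC and 69.9 to 90.2 CPM in HFC, with a log2 fold change of -0.05. HACD1 had 1.25 (SE 0.49, adjusted p = 0.739), of which HFC replicate 14 (28.5 CPM) formed the largest part, since the other HFC animals were at 2.61 to 5.12 CPM and the LFC animals at 1.45 to 4.67 CPM. The electron donors of the desaturases (CYB5A, CYB5B, CYB5R1 and CYB5R3) had log2 fold changes from -0.10 to 0.13.

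Of 11 genes of fatty acid synthesis and its supply, 0 were called. An unadjusted p under 0.05 was found for 2, both upwards, against 4.29% of all genes tested. THRSP had a log2 fold change of 1.44 (SE 0.60, adjusted p = 0.782) from low levels, and its partner MID1IP1 had 0.43 (SE 0.18, adjusted p = 0.774). HFC replicate 14 was highest for both. ACLY, which supplies cytosolic acetyl-CoA, and ACACA, which makes malonyl-CoA, had -0.27 and -0.28. Among 11 tested genes that control lipogenesis, 0 were called and 10 had a positive log2 fold change, against 6928 of all 14319 genes tested. NR1H3, the liver X receptor alpha that drives lipogenic genes, was at 3.16 to 9.89 CPM in LFC and 3.96 to 16.8 CPM in HFC (log2 fold change 0.86, SE 0.30, adjusted p = 0.647), and SREBF2, the most abundant, had 0.05.

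Acyl-CoA synthetases and the genes of uptake and esterification showed the widest range. ACSBG1, a long-chain acyl-CoA synthetase of brain and glia, was at 0.368 to 4.85 CPM in LFC and 0.825 to 58.4 CPM in HFC (log2 fold change 2.82, SE 0.84, adjusted p = 0.612), with the 4 highest values in HFC replicates 16, 11, 14 and 13. FABP5, a fatty acid binding protein, was at 16.0 to 63.5 CPM in LFC and 18.9 to 167 CPM in HFC (log2 fold change 1.02, SE 0.45, adjusted p = 0.815). CD36, a fatty acid translocase, was at 37.4 CPM in HFC replicate 14 and at 2.76 CPM or less in the other 15 libraries. FABP7 and AGPAT3 had log2 fold changes of 1.45 and 0.12. Of the 7 genes of peroxisomal shortening, which cuts the last intermediate of the polyunsaturated route to docosahexaenoate, 6 had a negative log2 fold change. Values ran from -0.41 (ABCD2) to 0.12 (SCP2) over the list, and 0 genes were called. A positive log2 fold change was found in 6928 of all 14319 genes tested.

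Over the 10 lists of other lipid genes, 87 of 90 genes were tested and 0 were called. At an unadjusted p under 0.05, 8 were higher and 2 lower in HFC, against 615 (4.29%) and 219 (1.53%) of all 14319 genes. The median log2 fold change of the 87 genes was 0.02.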

How the data were processed

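The study sequenced poly(A) RNA libraries of whole pituitaries, prepared from 300 ng of total RNA without strand information, as single reads in technical repeats. The labels' extraction text speaks of fat samples and a different RNA kit from the methods; the tissue label is pituitary. The authors deposited raw counts per Ensembl gene for 16 libraries, whole numbers without normalisation. The submitters' processing notes name FastQC, STAR, RSEM and DESeq2 with Sscrofa11.1. A second deposited table holds the authors' group means, folds and p-values, which were not used; gene symbols and positions were. Symbols came from that table (10091 genes), a gene name table (5454) or overlap of at least 50% with a RefSeq gene (247). Of 25880 genes, 6308 had no count. Counts of same-group libraries differed by at least 28.3 in chi-square per degree of freedom over 56 pairs, and none was treated as a repeat of another.

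The comparison of HFC with LFC used edgeR 4.0.16 under R 4.3.3 (glmQLFit and glmQLFTest, TMM, filterByExpr on group, no covariate, all 16 libraries). The filter removed 11561 genes. Calls needed a Benjamini-Hochberg adjusted p of at most 0.05 and a fold of at least 1.3. Log2 CPM used a prior count of 2. Alternatives were DESeq2 1.42.0, limma-voom (limma 3.58.1) with library weights, other scalings and filters, a robust fit, and left-out libraries; leaving out HFC replicates 11 and 16, or LFC replicate 5 and HFC replicate 16, was added after the data were seen. The fits were tested on simulated data. The members and gene lists were chosen with earlier results of these data known. Named were all 10 members, of each lipid list the 3 genes with the smallest unadjusted p and the most abundant one, the 10 highest and 3 lowest in r with ELOVL2, and cell type markers; CYB5R1, HACD2 and TECR were named with their families. A gene that the rule would name is not reported here. OLAH, S100B, MOBP, OACYL, LHB, GNRHR, SOX2, CDH26, NEFM and HBA1 are not analysed here.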

Additional observations from a re-analysis of the deposited data

Results flagged for a closer look

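Each of the 10 genes was checked in each group of 8 for a library whose gap to its nearest neighbour took more of the range than Dixon's 95% limit allows, on log2 CPM. Of 20 checks, 3 passed, where chance gives about 1.0. ELOVL2 in HFC replicate 16 was at 5.29, and the other 7 HFC animals were between 2.72 and 3.37. This is the library with the highest POMC, PCSK2 and PAX7. ELOVL1 in LFC replicate 5 was at 5.43, and the other LFC animals were between 4.09 and 4.67. ELOVL7 in the same library was at 3.22, below the 3.94 to 4.22 of the others. LFC replicate 5 was also the LFC minimum of ELOVL2, ELOVL4, ELOVL5, ELOVL6, SCD and FASN.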

How the results depend on the processing

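No paired analysis was possible because the groups share no replicate numbers. With DESeq2, 20 genes and 1 of the 10 members were called against 0 with edgeR (1172 and 1 at an unadjusted p under 0.05 with DESeq2, 834 and 1 with edgeR), and the member was ELOVL2 (log2 fold change 1.62), for which this is no test because it was chosen on the same contrast; the cause of the difference between the tools was not tested. The other 27 alternatives called no member, and no other lipid gene was called in any of the 28. The log2 fold changes of ELOVL2, ELOVL4, ELOVL5 and FASN kept their sign in all 28, ELOVL2 between 1.01 and 1.75. Uncalled values near 0 changed sign: with limma-voom ELOVL1 (0.195), ELOVL6 (0.042) and FADS1 (0.026); without LFC 5, HFC 13 and HFC 14 ELOVL1 (0.14) and ELOVL6 (0.020); without LFC 5 and HFC 14 ELOVL1 (0.11) and FADS1 (0.018); without HFC 11 and HFC 16 ELOVL7 (-0.0015) and FADS2 (-0.019); without LFC 5 and HFC 16 ELOVL1 (0.11) and SCD (-0.062). Leaving out 1 library each gave -0.13 to 0.10 for ELOVL1, -0.10 to 0.026 for ELOVL6, -0.13 to 0.038 for FADS1 and -0.015 to 0.074 for FADS2. Depth limits ELOVL2 most, with as few as 27 counts in a library.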

Other observations

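Cholesterol synthesis starts from acetyl-CoA, as fatty acid synthesis does. Of its 18 genes, 13 had a negative log2 fold change in HFC, 0 were called, and the median was -0.09 against -0.01 over all genes tested. A positive log2 fold change was found in 6928 of all 14319 genes. SQLE, the squalene epoxidase, had the largest difference, at 20.3 to 28.1 CPM in LFC and 14.9 to 27.0 CPM in HFC (log2 fold change -0.33, SE 0.13, edgeR adjusted p = 0.754). MVK, the mevalonate kinase, had -0.31. The ceramide synthases, which use the very long chains made by ELOVL1, gave 0.14 for CERS2 and -0.31 for CERS6, with 0 of 6 tested genes called.

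Endothelial markers had a negative log2 fold change in 5 of 5 genes (median -0.17), and those of erythrocytes in 3 of 3 (median -0.35), none with an unadjusted p under 0.05. For comparison, 6928 of all 14319 genes tested had a positive log2 fold change. Of 7 microglia and macrophage markers 5 were positive, and 0 were called. CX3CR1 had 1.51 (edgeR unadjusted p = 0.0053, adjusted p = 0.612), with its maximum of 24.1 CPM in HFC replicate 16. The 5 neuronal markers had a median of 0.03. Of 4 somatotroph and lactotroph markers 3 were negative, and PRL, which was not called, had -1.86 (edgeR unadjusted p = 0.0186, adjusted p = 0.719). The 4 corticotroph markers had a median of -0.06 and the 3 stem and folliculostellate cell markers tested 0.28. The median was 0.20 for the 5 adipocyte markers tested and 0.37 for the 5 oligodendrocyte and Schwann cell markers tested.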
